A study of Arabidopsis thaliana with 12 samples.

Results

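BPEp, PTL and JAG are transcription factor genes that set the number, shape and size of petals and other lateral organs of Arabidopsis thaliana. They were taken by name from the array annotation, and each had 1 probe set that the annotation assigns to no other gene, so that 3 of 22810 probe sets, or 3 of 13355 named genes, are described. Per the RefSeq gene table, BPEp is AT1G59640 and JAG is AT1G68480, both on chromosome 1, and PTL is AT5G03680 on chromosome 5. Their transcripts were followed on 12 ATH1 arrays, a 1-colour Affymetrix design, in 4 groups of 3 samples: lug-3 flowers, wild-type flowers, lug-3 rosette leaves and wild-type rosette leaves. All plants, mutant and wild type, were in the Ler-0 background, which itself carries the erecta mutation known for compact growth. Flowers were taken at growth stage 6.90 and mature leaves at stage 3.90, from soil-grown plants at 20 °C after 4 days of cold, and each sample pooled 20 plants. Nothing in the labels tells if pools of the same group came from separate growth runs or extractions, and every p-value here measures the spread between these 3 samples a group, technical or not.

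The lug-3 plants carry a mutant allele of LEUNIG (LUG). The LUG protein is a corepressor that is brought to DNA by partner proteins and is known for keeping the stamen and carpel identity gene AGAMOUS out of sepals and petals. BPEp encodes a basic helix-loop-helix protein that limits petal size by restraining cell expansion. Its locus gives a petal-enriched splice form and a more widely expressed one. PTL (PETAL LOSS) encodes a trihelix protein that restrains growth between sepals and is needed for petals to start. JAG (JAGGED) encodes a zinc finger protein that keeps lateral organs growing, and its loss gives narrow, jagged sepals and petals. The labels describe the petals of lug-3 flowers as stamen-like or missing. In whole flowers, fewer petal cells and less transcript per cell cannot be told apart, here or in any flower value below.

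The deposited table gives a linear signal for each probe set, scaled by the authors so that the trimmed mean was the same on every array. The median signal lay between 38.3 and 52.5, and replicate arrays ranked the probe sets alike (Spearman's rho 0.954 to 0.986). Tests were run on the 17877 probe sets with a signal over 16.4, the 30th percentile of all signals, on at least 3 arrays. BPEp passed this limit on 8 of the 12 arrays, PTL on 5 and JAG on 5, so all 3 were tested. JAG passed it on 3 lug-3 flower arrays, 1 wild-type flower array and 1 lug-3 leaf array. It was thus tested only through lug-3 flowers, where it was highest, and its contrasts with that group are not independent of the filter. PTL and JAG had no signal above 35.6, close to the limit. The array annotation names no gene for 8730 probe sets. LUG, the partner gene LUH and the 15 floral organ identity genes listed for this work were not analysed here, and the labels could not be checked on LUG itself. Photosynthesis genes marked the leaves and anther genes the flowers. The summed signal of 3 tapetum and anther genes was 470 to 636 in lug-3 flowers and 1323 to 2042 in wild-type flowers, against 24.1 to 26.3 in lug-3 leaves and 10.8 to 21.8 in wild-type leaves.

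BPEp was the member with the highest signal in flowers relative to leaves and the only one that passed the test between lug-3 and wild type as deposited. In lug-3 flowers its signal was 178, 110 and 139 on the 3 arrays. In wild-type flowers it was 342, 396 and 262. Every lug-3 flower array lay below every wild-type flower array, and the highest mutant value was well short of the lowest wild-type value. The means were 142 ± 33.7 in lug-3 flowers and 333 ± 67.5 in wild-type flowers (SD, n = 3 each), so the mutant kept 42.7% of the wild-type signal. On the log2(signal + 8) scale, which understates changes of low signals, BPEp fell by 1.19 (SE 0.294, 95% interval -1.83 to -0.55, limma adjusted p = 0.0215 over all tested probe sets). Of all tested probe sets 12.0% were called in this comparison at an adjusted p below 0.05, and 6.75% were called lower. Groups that did not overlap, with lug-3 lower, were found for 16.3%. A more negative log2 difference than that of BPEp was seen for 523 of the 17877 probe sets.

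The BPEp call in flowers rested on a narrow margin. It was lost when lug-3 flowers 2 (adjusted p = 0.0931), lug-3 flowers 3 (0.0559), wild-type flowers 1 (0.0761) or wild-type flowers 2 (0.0920) was left out of the limma fit, with log2 changes between -1.35 and -1.03 over the 6 flower arrays omitted in turn. It was also lost with a pseudocount of 1 (-1.23, adjusted p = 0.142), where the SE, estimated over flower and leaf arrays together, was 0.476 instead of 0.294. The limma fit of flower arrays alone gave an SE of 0.204 and an adjusted p of 0.00820. That fit kept the pseudocount of the main test, so its SE is not on the scale of the fit with a pseudocount of 1. What part the leaf arrays had in the call lost with a pseudocount of 1 was not tested.

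**Figure D1:**
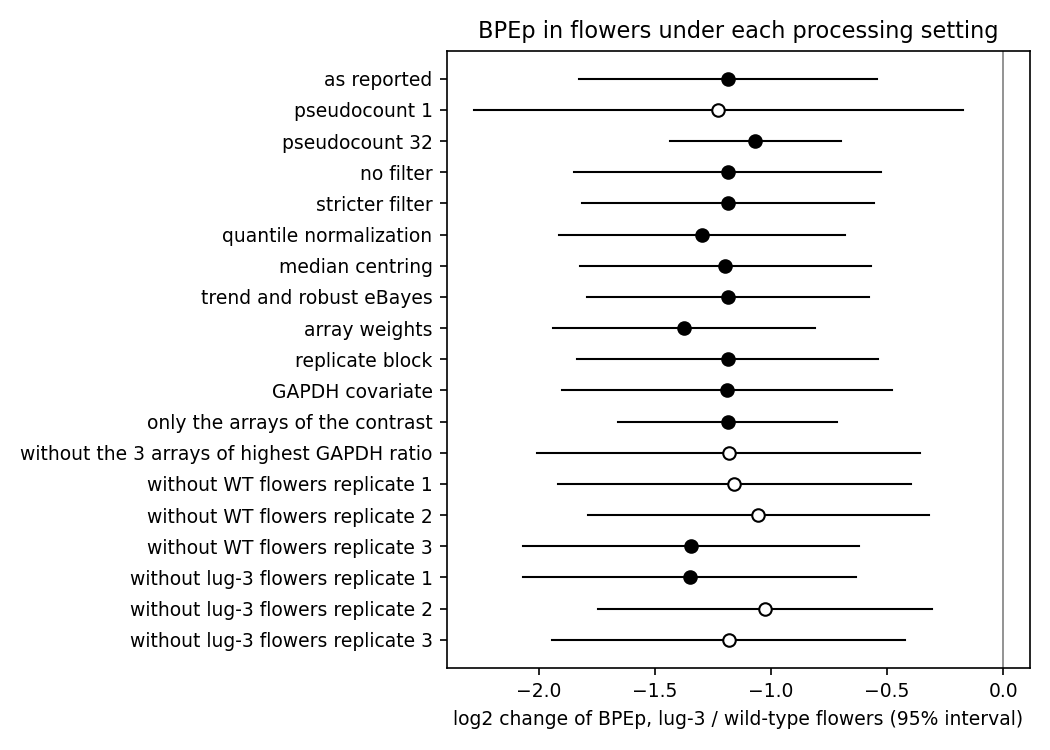
Log2 change of BPEp in lug-3 against wild-type flowers under each processing setting, with the 95% interval of the limma fit as a line. Filled points passed an adjusted p of 0.05 and open points did not. All points lie below 0, from -1.38 to -1.03, and 6 of the 18 alternatives are open.

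In leaves BPEp was near the low end of the measured range in both genotypes. Its signal was 17.6, 18.3 and 3.58 in lug-3 leaves and 8.99, 10.1 and 14.6 in wild-type leaves. The mutant arrays lay on both sides of the wild-type ones, and lug-3 leaves 3 was the lowest of all 12 arrays. The log2 difference was 0.05 (95% interval -0.59 to 0.70, limma adjusted p = 0.918), in a comparison that called 22.3% of all tested probe sets. The interval leaves room for a change of up to 0.70 on this scale. The change in flowers minus that in leaves was -1.24 (SE 0.415, limma adjusted p = 0.05003), just over the threshold, where 23.0% of probe sets were called. Without lug-3 leaves 3 this difference was -1.63 (adjusted p = 0.00552). With the 12 arrays left out in turn it passed on 3 omissions, and the adjusted p ranged up to 0.1145.

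**Figure D2:**
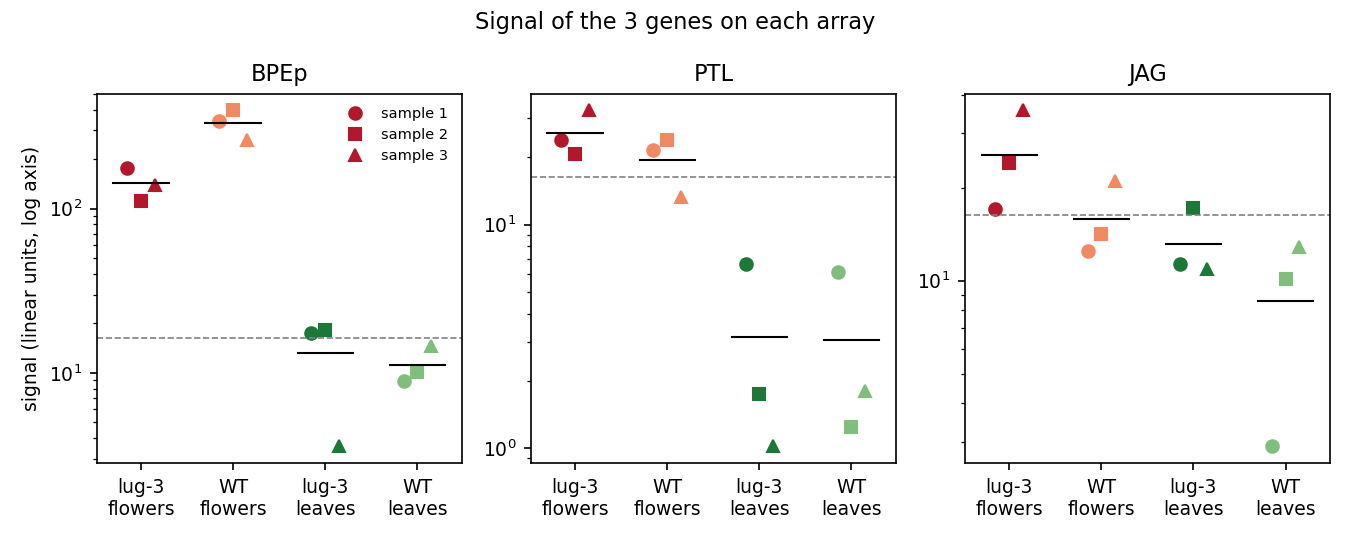
Signal of BPEp, PTL and JAG on each array, on a log axis, with lug-3 and wild-type (WT) flowers to the left of lug-3 and WT leaves. Points are single arrays, horizontal bars are group means and the dashed line is the filter at 16.4. The 3 lug-3 flower arrays of BPEp (110 to 178) sit below the 3 WT flower arrays (262 to 396), while the lug-3 and WT arrays of PTL and JAG overlap in both tissues.

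Flowers stood far above leaves in BPEp signal in both genotypes. The ratio of mean signals was 10.8 in lug-3 (142 ± 33.7 in flowers, 13.1 ± 8.29 in leaves) and 29.7 in wild type (333 ± 67.5 in flowers, 11.2 ± 2.97 in leaves). No wild-type leaf array and 2 of the 3 lug-3 leaf arrays exceeded the filter, so the size of these ratios rests on low leaf signals. The log2 differences were 2.90 in lug-3 (limma adjusted p = 6.71e-06) and 4.14 in wild type (SE 0.294, adjusted p = 1.97e-07). They were 3.58 in lug-3 and 4.78 in wild type with a pseudocount of 1, and 1.95 in lug-3 and 3.06 in wild type with 32, and all passed the test. Such contrasts were common: 33.0% of tested probe sets were called higher in wild-type flowers than in wild-type leaves and 31.7% higher in lug-3 flowers than in lug-3 leaves. Flower arrays all above leaf arrays were found for 35.7% in wild type and 37.5% in lug-3. BPEp lay near the top of the wild-type contrast, where 17672 of the 17877 probe sets had a lower log2 difference. Without flower arrays BPEp would not have passed the filter, so its tissue contrasts and this rank are not independent of the filter. Tissue and growth stage cannot be told apart in these contrasts. In order of level, wild-type flowers came first and lug-3 flowers second, with no overlap between neighbours down to the leaves, where lug-3 and wild type were not separated. The deposited table holds 1 probe set for the locus, RefSeq lists 2 transcripts of it, and which splice form the probe set reports is not given in the sources used here.

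PTL was measured at low signal in flowers and lay below the filter on every leaf array. Its signal was 23.8, 20.8 and 32.5 in lug-3 flowers and 21.5, 23.8 and 13.2 in wild-type flowers. The ranges overlapped, with lug-3 flowers 3 the highest array and wild-type flowers 3 the lowest. The log2 difference between lug-3 and wild-type flowers was 0.30 (95% interval -0.21 to 0.81, limma adjusted p = 0.475). The interval covers a difference of 0.81 upward and excludes a fall as large as that of BPEp.

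In leaves PTL had a signal of 6.69, 1.75 and 1.02 in lug-3 and 6.12, 1.24 and 1.80 in wild type. Sample 1 of each genotype was the higher one, and the groups overlapped almost fully. The log2 difference was 0.00 (95% interval -0.51 to 0.52, limma adjusted p = 0.991), with every leaf signal below the filter. PTL was higher in flowers than in leaves in both genotypes, by 1.32 on the log2 scale in wild type (19.5 ± 5.58 in flowers, 3.05 ± 2.67 in leaves, adjusted p = 0.000398) and by 1.61 in lug-3 (25.7 ± 6.07 in flowers, 3.15 ± 3.09 in leaves, adjusted p = 0.000125). Every flower array was above every leaf array, as for 35.7% of tested probe sets in wild type and 37.5% in lug-3. Called higher in flowers were 33.0% in wild type and 31.7% in lug-3. PTL passed the filter through flower arrays alone, so its tissue contrasts are not independent of the filter. The size of this difference depended on the pseudocount, at 2.49 in wild type with a pseudocount of 1 and 0.55 with 32, and both passed the test. The lug-3 changes of PTL in flowers and leaves differed by 0.29 (adjusted p = 0.561).

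**Figure D3:**
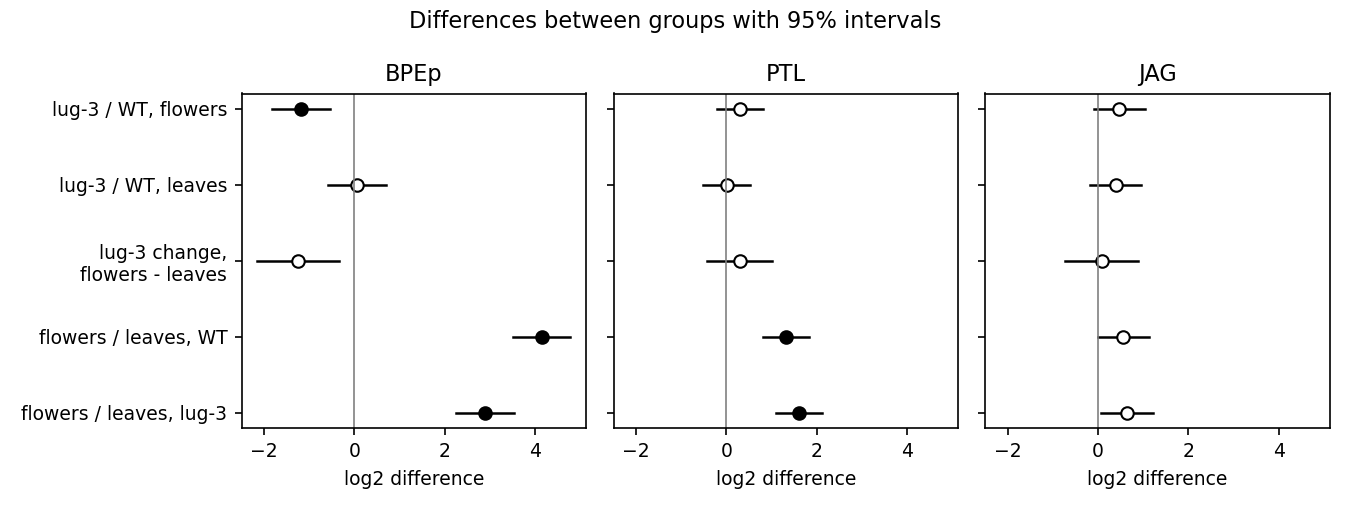
Log2 differences of BPEp, PTL and JAG for the lug-3 comparisons in flowers and leaves, their difference, and flowers over leaves in each genotype, with 95% intervals from the limma fit. Filled points passed an adjusted p of 0.05. BPEp and PTL are filled for both tissue contrasts, BPEp alone for lug-3 against wild-type flowers (-1.19), and JAG in none.

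JAG had the flattest profile of the 3 genes. Its signal was 17.0, 24.0 and 35.6 in lug-3 flowers and 12.5, 14.1 and 21.0 in wild-type flowers. The ranges overlapped because lug-3 flowers 1 lay below wild-type flowers 3, while lug-3 flowers 2 and 3 were above every wild-type flower array. In leaves it was 11.3, 17.2 and 10.9 in lug-3 and 2.91, 10.1 and 12.8 in wild type, with wild-type leaves 1 far below the rest. None of its contrasts passed the test as deposited. The lug-3 difference was 0.47 in flowers (95% interval -0.10 to 1.04, limma adjusted p = 0.290) and 0.39 in leaves (-0.18 to 0.96, adjusted p = 0.316). Flowers exceeded leaves by 0.56 in wild type (adjusted p = 0.0834) and 0.64 in lug-3 (adjusted p = 0.0584), in contrasts that called 59.2% and 51.1% of probe sets in either direction. The lug-3 difference in flowers minus that in leaves was 0.08 (adjusted p = 0.898).

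The JAG signal moved with RNA quality. RNA quality was read from the GAPDH control probe sets as 3' signal over 5' signal, a ratio that goes up as transcripts are degraded. The ratio was 1.65, 2.02 and 3.10 in lug-3 flowers and 1.63, 1.78 and 2.07 in wild-type flowers, and in both groups JAG was ordered in the same way. It was 1.47, 1.68 and 1.58 in lug-3 leaves and 1.71, 2.83 and 3.44 in wild-type leaves, so all lug-3 leaf ratios lay below all wild-type ones. JAG followed the order of the ratio in 3 of the 4 groups, the exception being lug-3 leaves, where samples 1 and 3 were nearly level. After each group's mean was subtracted, the correlation between log2 JAG and the log2 ratio over the 12 arrays was 0.957, and 6 of 17877 tested probe sets had a higher one. For BPEp it was 0.010 and for PTL -0.30, with a median of 0.0993 over all tested probe sets. These correlations are given as a description.

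**Figure D4:**
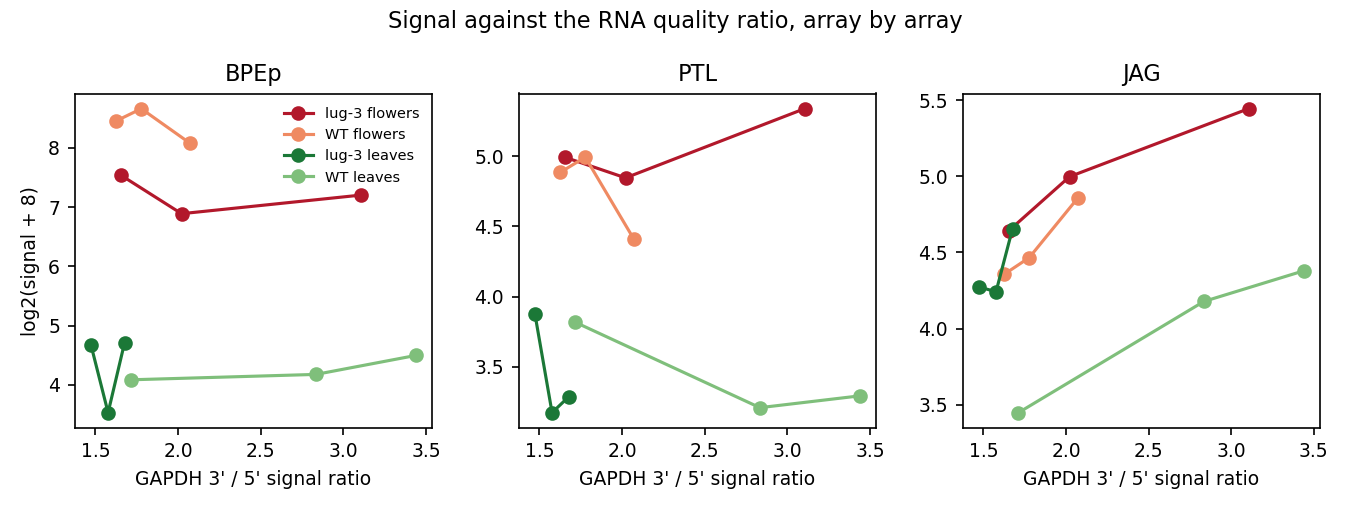
Log2(signal + 8) of BPEp, PTL and JAG against the GAPDH 3' to 5' ratio, 1 point per array, with lines joining the arrays of a group in order of the ratio. The JAG lines climb with the ratio in lug-3 flowers, WT flowers and WT leaves, and the WT leaf line, which spans 1.71 to 3.44, ends at a signal of 12.8 that overlaps the lug-3 leaf and WT flower arrays, while the BPEp and PTL lines show no common slope.

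With the log2 ratio as a covariate the SE of the JAG lug-3 difference in leaves was 0.150 instead of 0.260, and the difference was 1.06 (limma adjusted p = 0.00187). Wild-type flowers then exceeded wild-type leaves by 1.03 (adjusted p = 6.04e-05), and the lug-3 difference in flowers minus that in leaves was -0.84 (adjusted p = 0.0215). The lug-3 difference in flowers was 0.22 and did not pass (adjusted p = 0.295). Without the 3 arrays of highest ratio (lug-3 flowers 3 and samples 2 and 3 of wild-type leaves), the leaf difference was 0.94 (adjusted p = 0.0354), with wild-type leaves 1 alone standing for wild type and assumed to vary like the other groups. On that array JAG was at 2.91 with a ratio of 1.71. Lug-3 leaves 1, 2 and 3 had 11.3, 17.2 and 10.9 at ratios of 1.47, 1.68 and 1.58. Wild-type leaves 2 and 3 had 10.1 and 12.8 at ratios of 2.83 and 3.44. Because the leaf ratios of the genotypes do not overlap, a lug-3 effect on JAG in leaves and a difference in RNA quality cannot be told apart. BPEp moved little with the covariate, to -1.19 in flowers (adjusted p = 0.0339), though without the 3 arrays its adjusted p was 0.0663.

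All 3 members varied more between arrays of a group than most probe sets. The pooled SD on the log2 scale was 0.415 for BPEp, 0.322 for PTL and 0.362 for JAG, against a median of 0.209 over the tested probe sets. Across the 12 arrays the Pearson correlation was 0.89 between BPEp and PTL, 0.54 between BPEp and JAG and 0.56 between PTL and JAG. The points share the arrays and the difference between tissues, and the values are descriptions only.

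The genes whose log2 signal was most like that of a member over the 12 arrays were sought among 10012 other tested probe sets with 1 gene. For BPEp these were AT3G49270 (Pearson r = 0.992), AT5G16250 (0.991), AT1G03820 (0.990), AT3G19390 (0.987) and AT3G11600 (0.985). AT3G49270 had a mean signal of 255 in lug-3 flowers and 887 in wild-type flowers, with 3.56 in lug-3 leaves and 3.43 in wild-type leaves. AT3G19390 had 130 in lug-3 flowers and 249.6 in wild-type flowers, with 8.01 in lug-3 leaves and 5.34 in wild-type leaves. The gap between genotypes in flowers was smaller for the others, and their leaf signals were higher. AT5G16250 had 71.3 in lug-3 and 92.5 in wild-type flowers, with 20.2 in lug-3 and 22.6 in wild-type leaves. For AT1G03820 these were 164 and 214 in flowers and 68.0 and 58.5 in leaves. For AT3G11600 they were 69.2 and 113 in flowers and 27.5 and 28.9 in leaves. Because these genes were chosen for their likeness over the same arrays, their values are a description and were not tested. For PTL the closest were AT3G05400 (0.977), AT4G22050 (0.974), AT3G10190 (0.971), AT2G21300 (0.966) and AT5G55330 (0.965). For JAG they were AT5G54855 (0.951), AT1G07970 (0.942), AT2G45730 (0.936), AT3G19330 (0.923) and AT2G46380 (0.920). The within-group correlation of these 5 with the RNA quality ratio was 0.780 to 0.932.

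Other regulators of petal and lateral organ growth were followed as a list of 33 genes, of which 12 were named on the array and 8 tested, the 3 members included. Of the 5 others, UBP15 and SPT rose in lug-3 flowers, none fell and 3 did not pass, where 5.27% of all tested probe sets were called higher. The median log2 difference of the 5 was 0.17 in flowers, against 0.05 over all tested probe sets. In leaves UBP15 fell and 4 did not pass, where 11.0% of all were called lower, with a median of -0.15 against -0.01.

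UBP15, a deubiquitinating enzyme gene that promotes organ growth through cell division, went opposite ways in the tissues. Its signal was 178, 193 and 209 in lug-3 flowers and 114, 113 and 151 in wild-type flowers. In leaves it was 85.5, 91.9 and 84.1 in lug-3 and 127, 134 and 128 in wild type. The groups did not overlap in either tissue, with lug-3 above wild type in flowers and below it in leaves. Such a gap was found for 20.4% of tested probe sets in flowers, with lug-3 higher, and for 18.6% in leaves, with lug-3 lower. The log2 change was 0.60 in flowers (SE 0.125, limma adjusted p = 0.00936) and -0.54 in leaves (adjusted p = 0.0103). The difference between these changes was 1.13 (adjusted p = 0.00150), in a test that called 23.0% of all tested probe sets. The flower call was lost without wild-type flowers 2 (adjusted p = 0.0507), and the leaf call under the RNA quality covariate (0.0945) and when the 3 arrays of highest ratio were omitted (0.0927).

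SPT (SPATULA), a basic helix-loop-helix gene that acts in carpel margins and restrains leaf size, had a signal of 88.4, 83.5 and 77.4 in lug-3 flowers and 60.6, 51.5 and 49.0 in wild-type flowers. All mutant arrays were above all wild-type ones, as for 20.4% of tested probe sets. SPT rose by 0.57 on the log2 scale (limma adjusted p = 0.0124), a call lost on omitting lug-3 flowers 1 (0.0538) or, separately, wild-type flowers 2 (0.0553). In leaves the log2 difference was -0.15 (adjusted p = 0.443), and the difference between the tissues was 0.71 (adjusted p = 0.0143, with 23.0% of all tested probe sets called). BPEp, of the same protein class, went the other way in lug-3 flowers.

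ARL (ARGOS-LIKE), which promotes cell expansion in growing organs, averaged 173 ± 21.0 in lug-3 flowers and 264 ± 49.4 in wild-type flowers. The groups did not overlap, and such a gap with lug-3 lower was found for 16.3% of tested probe sets. The log2 difference of ARL in flowers, -0.57, did not pass (limma adjusted p = 0.256), except with array weights (-0.63, adjusted p = 0.0426). In leaves the difference was -0.67 (adjusted p = 0.126), and it passed without wild-type leaves 2 (-1.08, adjusted p = 0.00510), the wild-type leaf array of lowest signal at 114, and on omitting the 3 arrays of highest ratio (-1.10, 0.0260). AN (ANGUSTIFOLIA), a gene of leaf width and cell shape, differed by 0.17 in flowers and 0.44 in leaves (adjusted p = 0.722 and 0.229). Without lug-3 leaves 2 the leaf value of AN was 0.74 (adjusted p = 0.0326). SAP (STERILE APETALA), an F-box gene of flower and organ growth, stayed at 27.8 or below and had log2 differences of -0.09 in flowers and -0.14 in leaves, neither of which passed.

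**Figure D5:**
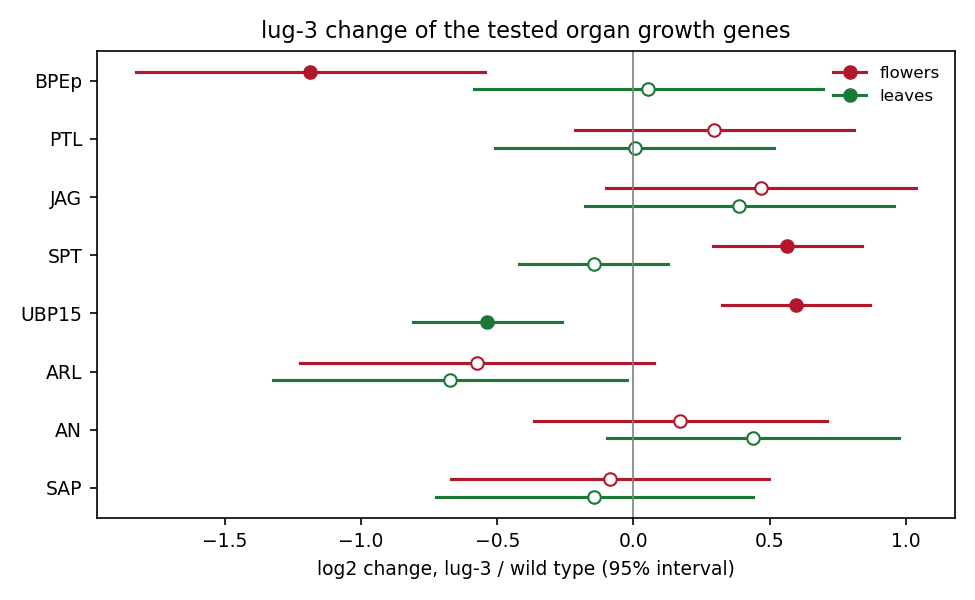
Log2 change of the 8 tested organ growth genes in lug-3 against wild type, in flowers (upper of each pair) and leaves (lower), with 95% intervals from the limma fit. Filled points passed an adjusted p of 0.05 and open points did not. In flowers BPEp lies below 0 while SPT and UBP15 lie above it, and in leaves UBP15 alone is filled, at -0.54.

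The other 4 named genes of the list, NUB, RBE, ROXY1 and SPL, did not pass the filter and are described after their values were seen. NUB (NUBBIN), the closest relative of JAG, had a signal of 2.77 to 3.61 in lug-3 flowers and 2.95 to 6.62 in wild-type flowers, with 11.3 to 14.9 in lug-3 leaves and 14.3 to 22.0 in wild-type leaves. In a limma fit of all 22746 probe sets NUB was lower in flowers than in leaves, with log2 differences of -0.996 in wild type (adjusted p = 0.000173, with 47.8% of probe sets called) and -0.95 in lug-3 (adjusted p = 0.000378, with 39.9% called). JAG, by contrast, was not lower in flowers in either genotype. RBE (RABBIT EARS), a zinc finger gene of petal initiation, had 1.69 to 5.64 in lug-3 flowers and 6.89 to 20.8 in wild-type flowers. The RBE groups did not overlap, and such a gap with lug-3 lower was found for 16.3% of the tested probe sets, which leave out RBE. The log2 difference of RBE, -0.82, did not pass in the limma fit of all 22746 probe sets (adjusted p = 0.108, with 8.92% called). ROXY1, a glutaredoxin gene needed for petal primordia, had 2.42 to 12.0 in lug-3 flowers and 1.96 to 11.9 in wild-type flowers. SPL (SPOROCYTELESS), needed for pollen and embryo sac formation, had no signal above 4.24 in lug-3 flowers and 2.69 to 14.7 in wild-type flowers. The organ boundary list had UFO and CLV3 on the array, both at 12.6 or below on all arrays, and neither was tested.

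The fall of BPEp stood beside changes in genes of other floral cells and of organ polarity. In this comparison 6.75% of all tested probe sets were called lower and 12.0% in either direction. All 4 tested pollen genes (PLIM2a, MGH3, ACT12 and PLIM2b) fell in lug-3 flowers, with a summed signal of 130 to 215 in lug-3 flowers and 483 to 642 in wild-type flowers. ACT12 was over the filter on 3 wild-type flower arrays and 1 lug-3 flower array, MGH3 on 3 and 2, and neither on a leaf array. Both were thus tested only through wild-type flowers, the group where they were high. PLIM2b was not particular to flowers, being over the filter on all 12 arrays. It was also called lower in lug-3 leaves (-0.56, limma adjusted p = 0.0290), where 11.0% of all tested probe sets were. That leaf call was lost on omitting 4 of the 6 leaf arrays in turn and under 3 of 12 alternatives. All 3 tapetum and anther genes (AT1G75920, ATA27 and AT5G07230) fell, as the sums above show. The call of AT5G07230 was lost without any 1 lug-3 flower array or wild-type flowers 3 (limma adjusted p 0.0535 to 0.0883). It was also lost under 2 of 12 alternatives, a pseudocount of 1 among them (adjusted p = 0.180). Of 2 carpel and ovule genes BAN fell, with 2.68 to 7.92 in lug-3 flowers against 233 to 357 in wild-type flowers, and NGA1 did not pass. BAN was over the filter on the 3 wild-type flower arrays alone, so it was tested only through the group where it was high. Of 4 organ polarity genes YAB5 and INO fell, by 0.69 and 0.71 on the log2 scale. YAB5 was not particular to flowers, with a mean signal of 57.9 in wild-type flowers and 62.9 in wild-type leaves. The call of YAB5 was lost without any 1 of 5 flower arrays (adjusted p 0.0602 to 0.1059; kept without lug-3 flowers 3), and that of INO without lug-3 flowers 2, wild-type flowers 1 or wild-type flowers 3 (0.0590 to 0.0710). No photosynthesis gene of 2 was called in flowers. These lists were chosen with earlier results of these data known, and what part the makeup of the flowers has in the BPEp result was not tested. SEU, whose product links LUG to DNA-binding proteins, had a log2 difference of 0.06 in flowers (limma adjusted p = 0.754). In leaves it was -0.33 (adjusted p = 0.0270), a call lost under the covariate (0.0624), with quantile normalization (0.0696), in the fit of leaf arrays alone (0.1127), on omitting the 3 arrays of highest ratio (0.1156) and without lug-3 leaves 2 (0.0735), lug-3 leaves 3 (0.0843) or wild-type leaves 3 (0.0645).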

How the data were processed

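The study measured 12 samples on 12 arrays, in 4 groups taken from the sample titles. The deposited values are intensity, a linear signal for each probe set. Per the submitters' processing notes, the tools were MAS5 and GCOS; their settings are not given here. The trimmed mean (2% off each end) was 100.0 on every array, so the authors had scaled the intensity values, and no further scaling was applied. Detection calls were not used here.

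Signals were transformed as log2(signal + 8). The 64 control probe sets were left out. The 17877 probe sets over the filter were then tested in limma 3.58.1 under R 4.3.3, in 1 model of 4 group means across the 12 arrays, moderated by eBayes (8 residual and 3.79 prior degrees of freedom), with Benjamini-Hochberg adjustment and a threshold of 0.05. It was tested on simulated data. Names came from GEO's platform annotation and a RefSeq gene table (TAIR10.1), which matched 13436 of 13513 probe sets with 1 gene. Where a gene had several probe sets, the one with the highest mean over the arrays stood for it.

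The text names the 3 members, SEU, the tested genes of the growth list, up to 4 genes of each other list by p in flowers and 2 in leaves, and the 5 genes most like each member. Genes below the filter were named after their values were seen. The members and lists were chosen with earlier results of these data known. Same-numbered samples did not deviate together (correlations of deviations -0.06 to 0.18, above 0.1 in 1 of 12 pairs), so samples were not treated as paired. Alternatives covered the pseudocount, filter, scaling, eBayes options, array weights, a replicate block, the arrays fitted, RNA quality and omission of each array. The number of arrays limits the precision.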

Additional observations from a re-analysis of the deposited data

Results flagged for a closer look

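The lug-3 change of UBP15 differed between the tissues by 1.13 on the log2 scale (flowers minus leaves, limma adjusted p = 0.00150), with all lug-3 flower arrays above and all lug-3 leaf arrays below the wild-type arrays of their tissue. That of SPT differed by 0.71 (adjusted p = 0.0143). Both differences passed the test under all 11 alternatives and without each of the 12 arrays in turn, with adjusted p up to 0.0161 and 0.0390 under the alternatives and up to 0.00579 and 0.0386 with an array left out. Of all tested probe sets 23.0% passed this test as deposited, and BPEp, PTL and JAG did not.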

How the results depend on the processing

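The flower fall of BPEp had the same sign throughout. Its call was lost with a pseudocount of 1 (-1.23) and without the 3 arrays of highest GAPDH ratio (-1.18), and leaving out arrays gave -1.35 to -1.03. Its difference between tissues passed with a pseudocount of 32 (-1.11), the stricter filter (-1.24), quantile normalization (-1.33) and median centring (-1.23). It also passed with trend and robust eBayes (-1.24) and array weights (-1.27). When arrays were left out it was -1.63 to -1.04 and passed on 3 of 12 omissions. Near 0 in leaves, BPEp turned to -0.026 with a pseudocount of 1 and -0.11 with array weights (-0.15 to 0.44 without single arrays). PTL in leaves turned to -0.022 with a pseudocount of 1, -0.012 with quantile normalization, -0.021 with median centring, -0.024 with array weights, -0.18 with the covariate and -0.37 without the 3 arrays (-0.21 to 0.19 without single arrays).

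JAG passed between lug-3 flowers and lug-3 leaves with a pseudocount of 32 (0.34) and array weights (0.55). It also passed with the replicate block (0.64) and only the arrays of the contrast (0.64). Without single arrays it was 0.43 to 0.83 and passed on 2 of 6 omissions (limma adjusted p down to 0.0294). Between wild-type flowers and leaves JAG passed with the replicate block (0.56) and the covariate (1.03). Without the 3 arrays, which leaves 1 wild-type leaf array, it was 1.11. Without single arrays it was 0.28 to 0.75 and passed on 1 of 6 omissions (limma adjusted p = 0.0375). In leaves it passed with the covariate (1.06) and without the 3 arrays (0.94). Its difference between tissues turned to -0.10 with a pseudocount of 1, -0.84 with the covariate and -0.68 without the 3 arrays (-0.13 to 0.36 without single arrays). SAP turned to 0.054 in leaves with array weights, and in flowers to 0.11 with the covariate and 0.18 without the 3 arrays (-0.27 to 0.10 in leaves and -0.24 to 0.18 in flowers without single arrays). The replicate block changed no other call of a member. The stricter filter left PTL and JAG untested.

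The number of probe sets called was 2150 in flowers, 5059 with array weights and 1151 to 1872 without single arrays. In leaves it was 3993, 1950 with only the leaf arrays and 2581 to 4014 without single arrays. Scaling moved the tissue contrasts. The median log2 difference between wild-type flowers and leaves was 0.06 as deposited, -0.09 with quantile normalization and -0.24 with median centring, and that between lug-3 flowers and leaves was 0.14, -0.01 and -0.14. The split of 5897 higher and 4685 lower in wild-type flowers became 4121 and 7228 with median centring, and that of 5672 and 3467 in lug-3 flowers became 4508 and 4459 with quantile normalization and 3362 and 5654 with centring. BPEp and PTL stayed higher in flowers under both scalings. The cause of these shifts was not tested.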
